A study of Mus musculus with 4 samples.

Results

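Fibroblast growth factors (FGFs) were examined in nasal process (NP) tissues of mouse embryos, through the 10 FGF genes *Fgf3*, *Fgf8*, *Fgf9*, *Fgf10*, *Fgf12*, *Fgf13*, *Fgf15*, *Fgf17*, *Fgf18* and *Fgf20*. The genes were chosen by symbol, and all 10 are among the 13577 genes of the table. 8 of them are secreted ligands by family, while *Fgf12* and *Fgf13* encode proteins that stay inside the cell. The tissue came from E11.5 embryos and was analyzed by bulk RNA-Seq in 4 libraries, of which 2 have titles of control embryos and 2 of ca-*Acvr1(A11)* mutants (called controls and mutants below). All embryos were from a line with *P0-Cre*, a Cre recombinase transgene that acts in cells of neural crest origin. The mutants also carried 1 copy of the floxed transgene ca-*Acvr1(A11)*, written fl/+, which encodes a constitutively active form of the BMP type I receptor ACVR1, whereas the controls lacked it. The Cre line marks the neural crest lineage, which gives the facial mesenchyme, and not the surface ectoderm. How many embryos went into a library was not given in the sources used here. The p-values below therefore rest on the spread between libraries, which may be technical. In the limma fits the variance of each gene is also drawn toward that of genes of similar level.

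The sample labels contradict each other. For the libraries with control titles the genotype field holds the transgene, while for those titled mutant only *P0-Cre* is entered. Groups follow the titles here, and if the genotype entries are the right ones, every direction below turns around. *Acvr1* itself was at 21.5 and 23.1 CPM (a gene's reads relative to all reads of that library) in controls and 24.1 and 12.6 CPM in mutants. These groups overlapped (log2 fold change −0.33, SE 0.28, adjusted p = 0.786 from limma), and the 3′ reads of the transgene need not fall on the endogenous gene, so this measurement does not settle the titles.

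FGFs signal between the ectoderm and the mesenchyme of the face. A secreted FGF binds a receptor tyrosine kinase together with heparan sulfate, the receptor drives the RAS and ERK cascade, and genes of the *Spry*, *Dusp* and *Etv* families are switched on as feedback inhibitors and effectors. In the face of the embryo, *Fgf8* from the ectoderm around the nasal pits is known to sustain survival and outgrowth of the underlying neural crest mesenchyme. *Fgf15*, the mouse counterpart of human *FGF19*, is best known as a hormone from the gut, and in the embryo it is transcribed in the forebrain and other neural tissue.

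Libraries were made with a QuantSeq kit, which reads the 3′ end of transcripts, so that CPM values are not divided by length and levels can be set beside each other. The library totals lay between 1956831 and 2408827 reads, and 1 read was worth from 0.415 to 0.511 CPM. Replicates correlated across genes with r = 0.976 (control) and 0.978 (mutant). All values of the 10 FGF genes were whole numbers of reads. In the fit over the 12462 genes with a mean above 1 CPM, 112 genes (0.899%) differed between the groups at an adjusted p under 0.05 in limma, 38 higher in mutants and 74 lower.

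Promoter sequences are shown for 2 members with higher values in both mutant libraries, since SMAD proteins, which act downstream of ACVR1, bind short DNA motifs. Neither gene passed the threshold in the limma fit above. RefSeq windows of 300 bases (GRCm38.p6, 250 bases before and 50 after a transcription start, 5′ to 3′ on the strand of the gene) were given for 6 of the 10 genes. Entries for *Fgf8*, *Fgf15*, *Fgf17* and *Fgf20* were not used here. *Fgf9* has 1 window, at chr14:58072436-58072735 (+), and *Fgf12* has 4, of which the one at chr16:28564902-28565201 (−) is printed. Capitals mark a match on either strand to the GC-rich SMAD element, spelled GGCGCC, or to the CAGAC box, searched in its complement as GTCTG. The letters of these motifs do not overlap each other.
Fgf9: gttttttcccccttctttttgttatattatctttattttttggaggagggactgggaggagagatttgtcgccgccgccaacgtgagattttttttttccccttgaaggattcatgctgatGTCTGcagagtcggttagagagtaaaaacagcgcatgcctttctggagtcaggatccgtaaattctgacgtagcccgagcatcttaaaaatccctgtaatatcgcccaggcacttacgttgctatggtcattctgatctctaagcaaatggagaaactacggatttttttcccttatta
Fgf12: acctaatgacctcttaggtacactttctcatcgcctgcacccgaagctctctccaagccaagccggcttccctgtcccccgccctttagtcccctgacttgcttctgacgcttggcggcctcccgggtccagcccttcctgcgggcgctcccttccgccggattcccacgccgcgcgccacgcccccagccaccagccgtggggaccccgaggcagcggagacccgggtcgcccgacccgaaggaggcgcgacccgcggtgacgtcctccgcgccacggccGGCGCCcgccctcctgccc
The *Fgf9* window held the CAGAC box 1 time and no GC-rich element, and its GC content was 42.7%. The *Fgf12* window held the GC-rich element 1 time and no CAGAC box, at a GC content of 71.7%. The GC-rich element was in 2 of the 4 *Fgf12* windows, and in no window of *Fgf3*, *Fgf9*, *Fgf10*, *Fgf13* or *Fgf18*. The CAGAC box was also found 4 times and 1 time in 2 of the 4 *Fgf13* windows and 2 times in the *Fgf18* window, genes whose levels overlapped between the groups, and in no window of *Fgf3*, *Fgf10* or *Fgf12*. *Fgf10*, whose window held neither motif, also had higher values in both mutant libraries. Of all 32851 windows of this length, 11.9% held the GC-rich element and 49.6% held the CAGAC box. These matches describe the letters alone, and 3′ reads do not show which of the *Fgf12* starts was in use.

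The levels of the 10 genes ran from under 1 to over 100 CPM. *Fgf15* was the highest in every library, followed by *Fgf8*. *Fgf9* and *Fgf13* came next, and their ranges overlapped in controls but not in mutants, where *Fgf9* was higher. *Fgf18*, *Fgf10* and *Fgf17* followed between 5.77 and 11.6 CPM. *Fgf18* and *Fgf10* overlapped in controls, and *Fgf10* and *Fgf17* overlapped in both groups. *Fgf12* lay below all 3 of these in controls and overlapped *Fgf17* in mutants. *Fgf3* and *Fgf20* were at the bottom, did not differ beyond their spread, and were held back from the test because their means were under 1 CPM.

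**Figure D1:**
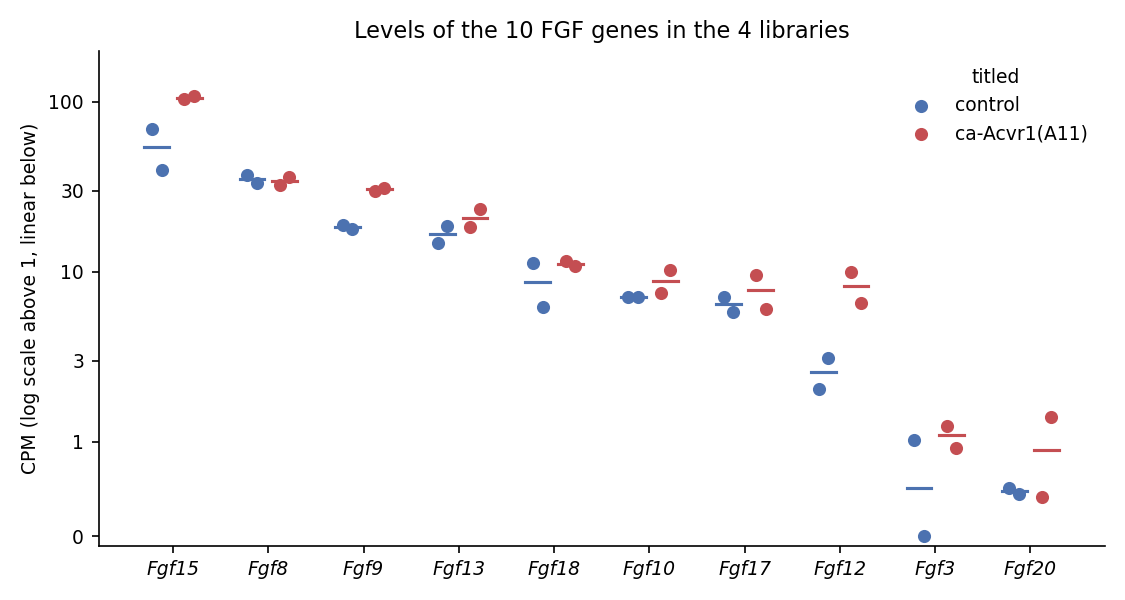
CPM of the 10 FGF genes in each library (y axis, log scale above 1 CPM and linear below), with 1 point per library and a bar at the mean of 2 libraries per group. Both mutant points of *Fgf15*, *Fgf9* and *Fgf12* lie above both control points, while those of *Fgf8* lie among them.

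*Fgf15* was higher in mutants. It was at 69.0 and 39.95 CPM in controls (135 and 90 reads) and 103.4 and 107.6 CPM in mutants (249 and 230 reads). The groups did not overlap, and the 2 mutant libraries lay close together while the control libraries lay apart. The means were 54.5 ± 20.5 and 105.5 ± 3.01 CPM (SD, n = 2 each), a ratio of 1.94. The log2 fold change was 0.99 (SE 0.20, 95% interval 0.59 to 1.39) with an adjusted p of 0.00704 from limma. The gene was 1 of the 38 genes called higher (0.305% of the genes tested). This SE draws on the variance of other genes, so that it does not measure the spread of *Fgf15* alone. edgeR on the recovered reads gave an adjusted p of 0.00645. DESeq2 did not make the call (log2 fold change 0.93, adjusted p = 0.127), nor did limma without control replicate 2, the library with the lowest value (0.61, adjusted p = 0.105), and without control replicate 1 the log2 fold change was 1.38.

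Averaged over genes with enough reads, the variance between replicates was 4.51 (control) and 3.51 (mutant) times that of counting. For *Fgf15*, too, the difference between the control libraries was beyond counting error. The exact 95% intervals of counting were 57.8 to 81.7 CPM in control replicate 1 and 32.1 to 49.1 CPM in control replicate 2. The gene lies on chromosome 7 (chr7:144896531-144900953, +, GRCm38), 52094 bases from *Fgf3*. Its last exon, at 144899649 to 144900953, is overlapped on the other strand by the noncoding gene *Gm39119*, which is not listed in the table. The strand setting of the read counting was not given in the sources used here, so that reads of this pair cannot be told apart. Among 9772 other genes with a mean above 5 CPM, those whose log2(CPM + 1) pattern over the 4 libraries lay nearest to that of *Fgf15* were *Plec*, which encodes the cytoskeletal linker plectin (distance 0.12), *2700038G22Rik* (0.17) and *Gria3*, a glutamate receptor subunit (0.18). None of these 3 was called, and their adjusted p-values in limma ran from 0.175 to 0.321.

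*Fgf8*, a ligand of the nasal pit ectoderm, did not differ between the groups beyond the spread of the replicates. It was at 37.3 and 33.3 CPM in controls and 32.4 and 36.0 CPM in mutants, from 73 to 78 reads in each. The groups overlapped, at means of 35.3 ± 2.84 and 34.2 ± 2.58 CPM (SD, n = 2 each). The log2 fold change was −0.04 (SE 0.21, adjusted p = 0.974 from limma), and its 95% interval, −0.47 to 0.38, leaves room for a moderate change in either direction. The gene lies at chr19:45736798-45742915 (−).

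*Fgf17* and *Fgf18*, which belong to the same subfamily as *Fgf8* and bind the same receptor forms, were lower than *Fgf8* in all 4 libraries. *Fgf18* was at 11.2 and 6.22 CPM in controls and 11.6 and 10.8 CPM in mutants. *Fgf17* was at 7.15 and 5.77 CPM and at 9.55 and 6.08 CPM in the same order. Both genes overlapped between the groups. Their log2 fold changes were 0.37 for *Fgf18* (SE 0.33, adjusted p = 0.811 from limma) and 0.22 for *Fgf17* (SE 0.36, adjusted p = 0.915 from limma). Summed, the 3 genes of the subfamily gave 55.7 and 45.3 CPM in controls and 53.6 and 52.9 CPM in mutants, a ratio of means of 1.05. *Fgf17* lies at chr14:70636203-70642268 (−) and *Fgf18* at chr11:33117430-33147400 (−).

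*Fgf9*, a secreted factor made by epithelia in several organs that signals to mesenchyme, had higher values in both mutant libraries. It was at 18.9 and 17.8 CPM in controls (37 and 40 reads) and 29.9 and 31.4 CPM in mutants (72 and 67 reads). No mutant value fell within the control range, and replicates lay close together in both groups. The means were 18.3 ± 0.814 and 30.6 ± 1.03 CPM (SD, n = 2 each), a ratio of 1.67. The log2 fold change was 0.71 (SE 0.23, 95% interval 0.23 to 1.19), with an unadjusted p of 0.00513 and an adjusted p of 0.223 in limma, which did not pass the threshold. Over the 14 alternatives run, the log2 fold change stayed between 0.67 and 0.75 and the adjusted p between 0.109 and 1.00. The gene, the promoter of which is printed above, lies at chr14:58070547-58112720 (+).

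*Fgf20*, of the same subfamily as *Fgf9* and known from the sensory epithelium of the inner ear, was near the limit of detection. It had 1 read in each control library and 1 and 3 reads in mutants, or 0.511, 0.444, 0.415 and 1.40 CPM. No difference was detectable at this depth. The gene lies at chr8:40279166-40308331 (−).

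*Fgf3* and *Fgf10* share a receptor form, FGFR2b, which is borne by epithelia. *Fgf10*, a product of mesenchyme in limb, lung and other organs, was at 7.15 and 7.10 CPM in controls and 7.47 and 10.3 CPM in mutants. Both mutant values were above both control values, the lower of them by less than the worth of 1 read. The log2 fold change was 0.27 (SE 0.34, 95% interval −0.44 to 0.97, adjusted p = 0.879 from limma). *Fgf3* had 2 reads and no read in controls and 3 and 2 reads in mutants. The count of 0 in control replicate 2 allows up to 1.33 CPM (3 reads), above the values of the other 3 libraries, so that no difference was detectable. *Fgf10* lies at chr13:118669791-118792115 (+) and *Fgf3* at chr7:144838083-144844436 (+).

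*Fgf12* and *Fgf13* encode FGF homologous factors, which lack a secretion signal and bind voltage-gated sodium channels in excitable cells. *Fgf12* was at 2.04 and 3.11 CPM in controls (4 and 7 reads) and 9.96 and 6.55 CPM in mutants (24 and 14 reads). Both mutant values were above both control values, on few reads. The means were 2.58 ± 0.752 and 8.26 ± 2.41 CPM (SD, n = 2 each), a ratio of 3.21. The log2 fold change was 1.36 (SE 0.40, 95% interval 0.53 to 2.19), with an unadjusted p of 0.00225 and an adjusted p of 0.146 in limma, which did not pass the threshold. The exact 95% counting intervals were 0.557 to 5.23 CPM in control replicate 1 and 1.25 to 6.40 CPM in control replicate 2. Both reached into that of ca-*Acvr1(A11)* replicate 2, 3.58 to 10.99 CPM. That of control replicate 2 also just reached into that of ca-*Acvr1(A11)* replicate 1, 6.38 to 14.8 CPM.

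*Fgf13* was at 14.8 and 18.6 CPM in controls and 18.3 and 23.4 CPM in mutants. The groups overlapped, and the log2 fold change was 0.30 (SE 0.26, adjusted p = 0.802 from limma). *Fgf12* lies at chr16:28160098-28753068 (−) and *Fgf13* at chrX:59062145-59568071 (−). For 9 of the 10 genes, *Fgf12* and *Fgf13* among them, the last 500 bases of the transcripts matched no other gene over 50 bases or more at an identity of at least 95%, so that reads of these FGF genes would not be exchanged with a paralog. The exception, *Fgf20*, overlaps *Micu3*.

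Of the 8 genes tested, 1 was called higher, which was *Fgf15*, and 0 lower. At an unadjusted p under 0.05, 3 were higher (*Fgf15*, *Fgf12* and *Fgf9*), where 5.42% of all genes tested were. In 4 of the 8 (also *Fgf10*), both mutant libraries lay above both control libraries, as for 21.9% of all genes. The fitted change was above 0 in 7 of the 8, with *Fgf8* the exception, and in 54.2% of all genes tested. The median log2 fold change of the 8 was 0.34, beside 0.03 for all genes tested. Summed over all 10 genes, the level was 169.2 and 132.3 CPM in controls and 224.2 and 234.4 CPM in mutants. *Fgf15* made up 40.8% and 30.2% of that sum in controls and 46.1% and 45.9% in mutants. Without it, the secreted members summed to 83.3 and 70.6 CPM in controls and to 92.6 and 96.9 CPM in mutants, a ratio of means of 1.23.

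**Figure D2:**
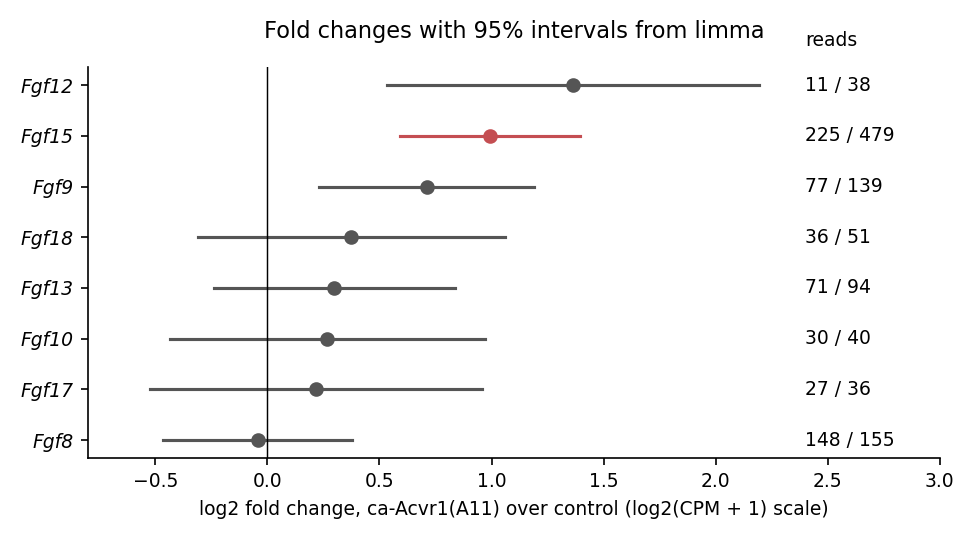
Log2 fold change of the 8 FGF genes tested (x axis, points) with 95% intervals from limma (lines), and at the right the summed reads of the control and mutant libraries. *Fgf15*, in red, was the gene called at an adjusted p under 0.05, and the intervals of *Fgf12* and *Fgf9* also lie above 0.

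Of the 12 other FGF genes of the mouse on the list, 5 were in the table and 3 were tested, of which 0 were called in limma and 0 had an unadjusted p under 0.05. edgeR tested none of them and DESeq2 gave none an adjusted p, since both leave out genes with few reads. *Fgf11* and *Fgf14*, which also encode intracellular factors, were fitted at 0.58 (SE 0.53) and 0.47 (SE 0.55), and *Fgf16*, of the *Fgf9* subfamily, at −0.21 (SE 0.53) on the log2 scale. None of the 5 reached 3 CPM in any library.

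Among receptors and cofactors, *Flrt2* was lower in mutants. *Flrt2*, which encodes a transmembrane protein of a family that associates with FGF receptors, was at 219.7 and 249.5 CPM in controls and 150.7 and 154.0 CPM in mutants. The groups did not overlap, and the log2 fold change was −0.62 (SE 0.14, adjusted p = 0.0271 from limma). It was the 1 gene called among the 9 tested of 14 on the list (0.594% of all genes were called lower). The call was lost with DESeq2 (adjusted p = 0.0800) and without control replicate 2 or either mutant library.

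The main receptor of the mesenchyme, *Fgfr1*, was at 207.5 and 215.3 CPM in controls and 183.1 and 165.2 CPM in mutants. *Fgfr2*, whose b form serves epithelia, was at 43.4 and 47.9 CPM and at 33.6 and 36.5 CPM. Both sets of values were separated by group, but neither passed the test (log2 fold change −0.28, SE 0.14, adjusted p = 0.549 for *Fgfr1* and −0.37, SE 0.20, adjusted p = 0.575 for *Fgfr2*, from limma). In 5 of the 9 genes tested both mutant libraries lay below both control libraries, as for 16.8% of all genes, and the median of the 9 was −0.26. Markers of neural crest mesenchyme were lower in the same libraries (sums of 2466 and 3006 CPM against 1368 and 1442 CPM), and their part in the receptor values was not tested.

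None of the 13 genes of the FGF/ERK response that were tested was called in limma, edgeR or DESeq2, and 0 had an unadjusted p under 0.05. *Dusp6*, the phosphatase that dephosphorylates ERK and is itself induced by FGF, was at 456.9 and 504.8 CPM in controls and 575.0 and 539.5 CPM in mutants. The groups did not overlap (log2 fold change 0.21, SE 0.13, adjusted p = 0.681 from limma). *Spry2* and *Spry4*, feedback inhibitors of the receptor cascade, were fitted at 0.30 (SE 0.18) and 0.44 (SE 0.35). These 2 genes and *Spry1* hold values in mutant libraries that are not whole reads, and with the nearest whole-read values the log2 fold changes of *Spry2* and *Spry4* were 0.18 and 0.01. The median of the 13 was 0.12.

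**Figure D3:**
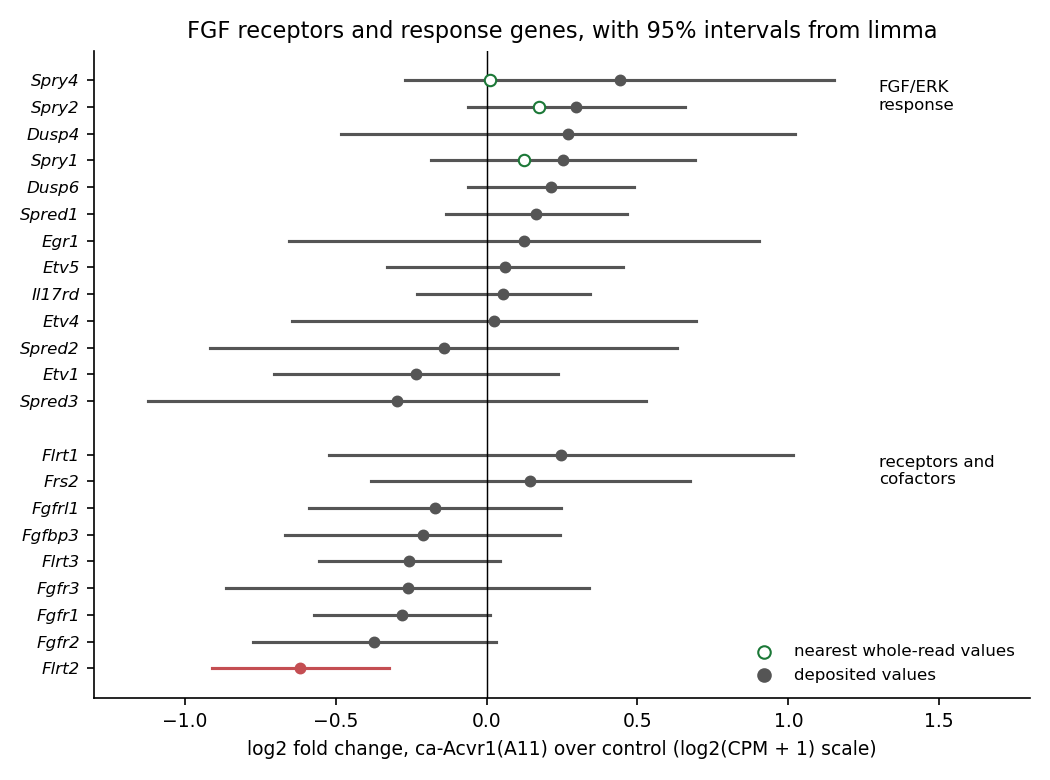
Log2 fold change (x axis, filled points) with 95% intervals from limma (lines) of 9 FGF receptors and cofactors and 13 FGF/ERK response genes, with *Flrt2*, the gene called, in red. Open points give *Spry1*, *Spry2* and *Spry4* with the nearest whole-read values, and each of the 3 lies closer to 0 than with the deposited values.

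Markers of the cell types in the tissue also differed between the groups. In bulk tissue, fewer cells of a type and less RNA per cell cannot be told apart. Of 15 markers of neural crest mesenchyme, 13 were lower in limma and 7 in DESeq2, with *Prrx1* at 224.3 and 241.1 CPM in controls and 94.7 and 108.1 CPM in mutants (log2 fold change −1.19, SE 0.15, adjusted p = 1.5e-05 from limma). *Twist1* was at 113.4 and 205.1 CPM in controls, which lay apart, and at 89.7 and 87.5 CPM in mutants. It was called lower in limma (log2 fold change −0.78, SE 0.19, adjusted p = 0.0411 from limma) but not in DESeq2. In all 15 the fitted change was below 0.

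Epithelial markers had a higher summed level in both mutant libraries. Of 21 tested, *Epcam*, *Cdh1* and *Perp* were higher in limma and in edgeR and 0 in DESeq2, and the list summed to 405.2 and 376.0 CPM in controls and to 568.7 and 545.6 CPM in mutants. *Epcam*, a surface protein of epithelial cells, was at 59.3 and 70.6 CPM in controls and 110.4 and 103.4 CPM in mutants (log2 fold change 0.72, SE 0.16, adjusted p = 0.0264 from limma). *Cdh1*, E-cadherin, was fitted at 0.78 (SE 0.17, adjusted p = 0.0145 from limma). *Epcam* and *Cdh1* were present in all libraries, so that each held RNA of epithelium.

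Of 16 markers of the olfactory placode and forebrain, 1 was higher in limma and in edgeR (*Sp8*) and 0 in DESeq2, and the list summed to 1350 and 1242 CPM in controls and to 1751 and 1625 CPM in mutants. Of the 15 markers of young neurons tested, 0 were called in limma or DESeq2 and 0 of the 14 that edgeR tested. The list summed to 981.7 and 1096 CPM in controls and to 1113 and 1335 CPM in mutants. The fitted change was above 0 in 12 of the 15 and below 0 in 3. At an unadjusted p under 0.05 in limma, 5 were higher and 1 was lower. Of the 11 macrophage markers tested, *Cx3cr1* and *Mrc1* were higher in limma and in edgeR and 0 in DESeq2, with sums of 56.7 and 58.2 CPM and of 94.7 and 133.4 CPM. Endothelial, erythroid, Schwann cell and muscle markers held 0 calls in limma. The summed levels of the first 3 overlapped between the groups, and muscle markers, none of which edgeR tested, summed to 9.71 and 10.2 CPM in controls and to 11.2 and 15.9 CPM in mutants. Of the 4 Schwann cell markers tested, 2 had values below those of both controls in both mutant libraries and did not pass the test. They were *Sox10*, at 9.71 and 7.99 CPM in controls and 2.08 and 3.28 CPM in mutants (log2 fold change −1.44, SE 0.39, adjusted p = 0.0926 from limma), and *Foxd3*, at 3.07 and 7.99 CPM in controls and 1.66 and 0.468 CPM in mutants (log2 fold change −1.61, SE 0.50, adjusted p = 0.178 from limma), both named after their values were seen. *Fabp7* made up most of the Schwann cell sum. *Tubb3* of neurons (189.1 to 255.0 CPM), *Csf1r* of macrophages (3.995 to 13.6 CPM), *Pecam1* of endothelium (26.1 to 34.6 CPM) and the embryonic globin *Hbb-y* (3702 to 4680 CPM) were found in every library. Of the markers in the table, only *C1qa* of macrophages was at 0 in a library, and *Myod1* and *Myog* of muscle are among those that are not in it.

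**Figure D4:**
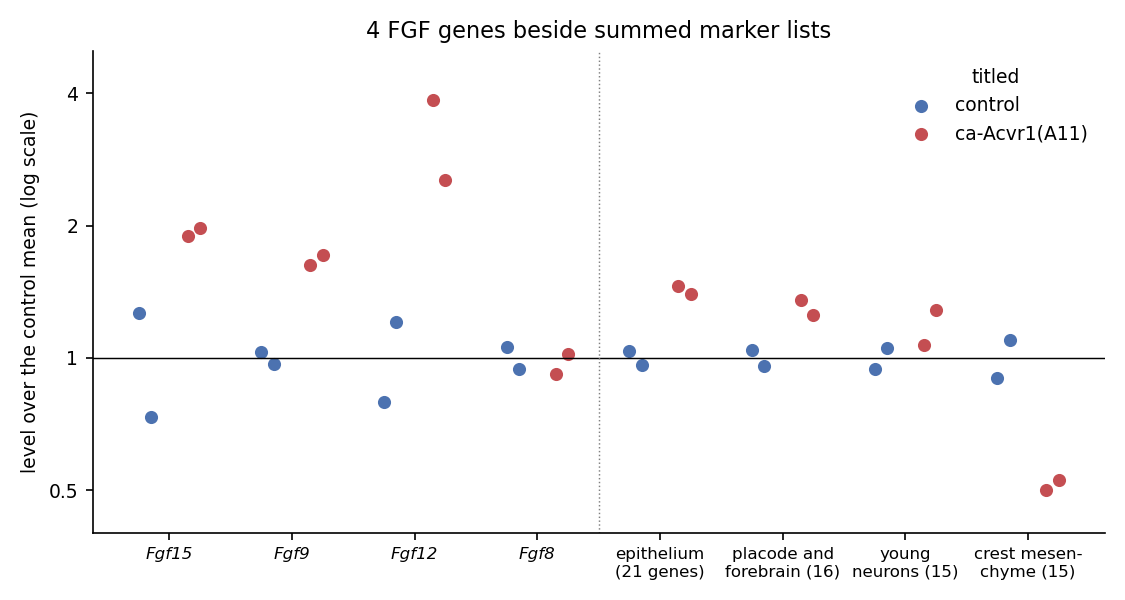
Level of 4 FGF genes and summed level of 4 marker lists in each library, divided by the mean of the control libraries (y axis, log scale), with 1 point per library. The epithelial, the placode and forebrain, and the young neuron sums lie above the control libraries in both mutant libraries, the mesenchyme sum lies below, and *Fgf8* stays near 1.

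Since these markers moved with the group, the FGF genes were also set against them, a description chosen after the levels had been seen. *Fgf8* amounted to 9.21% and 8.85% of the summed epithelial markers in controls and to 5.69% and 6.60% in mutants. *Fgf8* was thus lower relative to the epithelial markers in both mutant libraries while its CPM overlapped. Against the summed placode and forebrain markers, *Fgf8* was at 2.76% and 2.68% in controls and 1.85% and 2.22% in mutants. Against the young neuron markers it was at 3.80% and 3.04% and at 2.91% and 2.70%. Both of these ratios were also lower in both mutant libraries. *Fgf9* amounted to 4.67% and 4.72% of the summed epithelial markers in controls and to 5.26% and 5.75% in mutants, a smaller separation than in CPM. Relative to *Epcam* alone, *Fgf9* was at 31.9% and 25.2% and at 27.1% and 30.3%, which overlap. Relative to the summed placode and forebrain markers it was at 1.40% and 1.43% in controls and 1.71% and 1.93% in mutants, and relative to the young neuron markers at 1.93% and 1.62% and at 2.69% and 2.35%, and neither of these ratios overlapped between the groups.

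*Fgf15* amounted to 5.11% and 3.22% of the summed placode and forebrain markers in controls and to 5.90% and 6.62% in mutants. The groups did not overlap in this ratio. *Fgf12* amounted to 0.208% and 0.284% of the summed markers of young neurons in controls and to 0.895% and 0.491% in mutants, whereas *Fgf13* amounted to 1.51% and 1.70% and to 1.64% and 1.75%, which overlap. With 2 libraries a group the smallest p that an exact permutation test of such a ratio allows is 0.333, so none was tested. The part of cell composition in the FGF levels was not tested.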

How the data were processed

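The authors sequenced RNA of E11.5 NP tissues with the QuantSeq 3′ kit. The submitters' processing notes name STAR, featureCounts 1.6.4, DESeq2 and mm10. The authors deposited CPM values, scaled to library totals, for 13577 genes (33470 further lines are empty, and 0 value columns were unused). Of 54308 values, 99.92% were whole reads within 0.02 reads of the step of their library, and 43 values in 22 genes were not. For an alternative, 42 of these were replaced by the nearest whole-read value with the same decimals.

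The main test was limma 3.58.1 (R 4.3.3) on log2(CPM + 1), for genes with a mean above 1 CPM. Variances were moderated across genes along a mean-variance trend, with Benjamini-Hochberg adjustment at 0.05 over all genes. Fold changes on this scale understate the change of low genes. edgeR 4.0.16 and DESeq2 1.42.0 were run on the recovered reads. Alternatives were a pseudocount of 0.1, no filter, a mean above 5 CPM, limma-voom, TMM scaling, DESeq2 size factors, whole-read values, the replicate number as a block, and each library left out in turn. Scripts were tested on simulated data. Intervals (exact binomial, 95%) and the floor of 3 reads cover counting error only.

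The members and lists were chosen with earlier results of these data known. Named genes were all members, those called and the 3 of smallest p in each FGF list, *Acvr1*, fixed markers, and the 3 genes nearest in pattern to *Fgf15*. *Perp*, *Sp8*, *Cx3cr1*, *Mrc1* and *Spry1* were named after their values were seen. Coordinates and transcript ends (blastn 2.17.0) are from GENCODE's annotation of GRCm38. Tables and figures were made with pandas 2.3.3 and matplotlib 3.10.9 in Python 3.11.15, and intervals with scipy 1.17.1. The values of 2 marker genes are not reported here.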

Additional observations from a re-analysis of the deposited data

How the results depend on the processing

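Of the FGF genes, 1 was called by limma (*Fgf15*), 0 by DESeq2 and 2 with the replicate block (*Fgf15* and *Fgf12*, the latter at 1.36 and an adjusted p of 0.0487). Leaving out a library gave 0 to 1 calls, with 0 without control replicate 2. The log2 fold change of *Fgf15* was 0.93 with DESeq2 (adjusted p = 0.127) and 0.61 to 1.38 without a library. The median of the FGF genes was 0.36 to 0.55 without a library and 0.31 to 0.36 under the other settings. Receptors and cofactors held 1 call by limma (*Flrt2*), 0 by DESeq2, and 0 to 1 without a library, with 0 without control replicate 2 or either ca-*Acvr1(A11)* library. The response genes held 0 calls under all 14 alternatives, and the other FGF ligands 0 under the 10 that gave any of them an adjusted p (a mean above 5 CPM, edgeR, limma-voom and DESeq2 did not). The replicate block changed no other of these counts. Across genes, the deviations of same-numbered libraries correlated at only 0.067. A low correlation over all genes can miss a pairing that touches some of them, so it does not decide whether equal replicate numbers pair the samples. *Fgf8*, *Fgf17* and *Fgf18* changed sign in 2, 1 and 1 of the 14 alternatives, each without a library, and none of the 3 was called under any.

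Over all genes, 112 were called by limma, 33 by DESeq2, 229 with the replicate block and 465 without control replicate 1. The causes of these shifts were not tested, except that the alternatives that leave out a library hold fewer samples, with the lone library assumed to vary like the other group. With 2 libraries a group and a total of 1956831 reads in the smallest, genes near 1 CPM rest on a few reads, and *Fgf3* and *Fgf20* could not be compared.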
